A study of Homo sapiens with 84 samples.

Results

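Kyse30 cells, an established line from an esophageal squamous cell carcinoma that carries an amplified EGFR gene, were compared after 72 h and after 6 h of treatment with 9 nM EGF (EGFhigh). All libraries whose labels gave this cell line, dose and time entered: 3 at 72 h (replicates 1, 3 and 4) and 4 at 6 h (replicates 1 to 4), together 7 of the 43 Kyse30 libraries and of the 84 libraries of the series. Every gene was compared. Cells had been plated in medium with fetal calf serum, serum-starved for a day and then kept without serum during treatment. Both times share the serum withdrawal, which had lasted longer at 72 h. Untreated cells without serum at 6 h and 72 h (3 libraries each), cells given 1.8 nM EGF (EGFlow, 4 libraries each) and cells given EGFhigh with the Fc-fused extracellular domain of EpCAM (EGFhigh + EpEX, 4 libraries at 6 h and 3 at 72 h) served to see whether a difference between times was particular to EGFhigh. The line is a single cancer cell line in culture, and the labels do not say whether replicates were separate cultures. The p-values therefore measure the spread between libraries, which was estimated over all 43 Kyse30 libraries together.

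EGF binds the receptor tyrosine kinase EGFR, which dimerises and signals through the RAS-ERK and PI3K-AKT cascades. Within hours, ERK induces immediate-early transcription factors such as EGR1 and the AP-1 family, together with feedback phosphatases and further EGFR ligands. In squamous epithelium EGFR signaling governs proliferation, migration and the balance between the basal state, anchored by hemidesmosomes to laminin-332, and terminal differentiation with a cornified envelope. Strong, lasting stimulation of squamous carcinoma cells is known to induce an epithelial-mesenchymal transition (EMT).

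RNA was read by 3′ sequencing (QuantSeq), in which 1 end of each transcript is read, so counts do not grow with transcript length. Total counts on genes were 2769098 to 9331549 at 6 h and 5993131 to 9499780 at 72 h, so that 3 counts, taken as the least a library can show, corresponded to 0.316 to 1.08 CPM. CPM are read counts of a gene scaled to a common total by the library's effective size, and are given in the order of the replicate numbers. Libraries of 6 h resembled each other (Spearman correlation over genes 0.945 to 0.967), while among those of 72 h replicate 1 stood apart (0.918 to 0.955 within 72 h, 0.900 to 0.938 between times). A chi-square per degree of freedom of the counts was 59.9 and 63.9 between 72 h replicate 1 and the other 72 h libraries, against 19.3 between those and 12.6 to 32.0 among 6 h libraries. The shallowest library was 6 h replicate 1. The main counts are therefore also given without replicate 1 of both times. Of 10 markers of squamous epithelium all were found, summing to 2106 to 3641 CPM at 6 h and 2712 to 4020 CPM at 72 h, of which SFN (stratifin) was the largest part. KRT5, the basal keratin, was near the floor (0.975–2.11 CPM at 6 h and 1.52–3.14 CPM at 72 h). Markers of leukocytes summed to at most 14.4 CPM, with PTPRC, CD3E, MS4A1 and ITGAM at 0 in every library. Those of endothelium summed to at most 7.34 CPM with PECAM1, KDR, TEK, CLDN5 and EMCN at 0, and those of fibroblasts to at most 47.8 CPM with COL3A1, LUM and DPT at 0.

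Of 15350 genes tested, 1892 (12.3%) were differentially expressed (DEGs, adjusted p at most 0.05 and absolute log2FC over 0.5, edgeR) between 72 h and 6 h of EGFhigh. At 72 h 933 were higher (6.08% of genes tested) and 959 lower (6.25%), and 4107 had an unadjusted p below 0.05. Scaling by total counts alone, without trimmed means (TMM), called 749 higher and 1248 lower. In size, 628 DEGs rose by over 1 and 211 by over 2 on the log2 scale, and 597 and 112 fell by as much. In 1647 of the 1892 DEGs (87.1%) the 72 h libraries did not overlap with the 6 h libraries, which was so for 21.8% of all genes tested. Without replicate 1 of both times 1769 DEGs were found. Without 72 h replicate 3 alone there were 945 and without 72 h replicate 4 alone 1253, and DESeq2 called 2300. A fit of only the 2 groups compared, which takes the spread from their own libraries, called 1286 of 12356 genes tested.

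Among the genes that rose most were TXNIP, PIK3IP1, DEPP1, PDK4 and BCL6, which are known as targets of FOXO transcription factors or restrain glucose uptake and PI3K signaling. With them rose CYP1A1 and CYP1B1, cytochrome P450 enzymes known as targets of the aryl hydrocarbon receptor. TXNIP, an inhibitor of thioredoxin and of glucose uptake, counted 115, 50.2, 37.8 and 24.3 CPM at 6 h and 732, 4006 and 2777 CPM at 72 h. All 72 h libraries were above all 6 h libraries, with replicate 1 the lowest of its group (log2FC 5.49 ± 0.60, SE, adjusted p = 4.33e-08, edgeR).

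PIK3IP1, an inhibitor of PI3K, went from 1.70, 1.23, 1.37 and 0.344 CPM to 5.95, 52.8 and 47.8 CPM, again with 72 h replicate 1 lowest and the groups apart (log2FC 5.05 ± 0.73, adjusted p = 6.30e-06, edgeR). DEPP1, a FOXO target that acts in autophagy, was at 2.04, 0.527, 0 and 0.803 CPM and then at 20.4, 33.9 and 21.7 CPM (log2FC 5.03 ± 0.81). PDK4, which slows the entry of pyruvate into the mitochondrial citrate cycle, was under 1 CPM in each 6 h library and at 11.4, 11.6 and 13.1 CPM at 72 h (log2FC 4.81 ± 0.88). BCL6, a transcriptional repressor, rose from 2.63–5.44 CPM to 25.5–61.8 CPM (log2FC 3.58 ± 0.49). At 6 h TXNIP, PIK3IP1 and BCL6 were called lower under EGFhigh than in untreated cells (log2FC -2.74, -3.9 and -2.83). At 72 h no difference from untreated cells was called for them (log2FC 0.447, 0.691 and 0.04). They also rose with EGFlow (log2FC 3.81, 2.56 and 2.003) and EGFhigh + EpEX (4.45, 3.48 and 1.71). No difference in change from either was called for them. PDK4 rose with EGFlow too, and DEPP1 was called in neither.

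CYP1B1 counted 23.8, 19, 18.7 and 22.8 CPM at 6 h and 136, 639 and 817 CPM at 72 h, so that even the lowest 72 h library, replicate 1, was well above the highest of 6 h (log2FC 4.65 ± 0.50, adjusted p = 3.65e-08, edgeR). CYP1A1 was under the 3-count floor in all 6 h libraries and at 0.816, 22.1 and 22 CPM at 72 h, low again in replicate 1. Its fitted log2FC of 6.73 ± 1.57 rests on that floor, as do those of other genes near 0 at 6 h (SPRR2E, SPRR1A, DEPP1, PDK4 and KRT14).

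The genes that fell most included secreted and signaling factors and regulators of chromosome segregation. FST, follistatin, which sequesters activins, counted 95.5, 124, 69.8 and 144 CPM at 6 h and 11.7, 8.92 and 14.8 CPM at 72 h (log2FC -3.20 ± 0.45, adjusted p = 3.08e-06, edgeR). The groups were separated by more than 4-fold. NRG1, a ligand of the EGFR relatives ERBB3 and ERBB4, dropped from 15, 14.2, 6.44 and 19.7 CPM to 1.28, 0.178 and 2.43 CPM (log2FC -3.36 ± 0.63), and 72 h replicate 3 was under the floor.

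RGS2, which shortens G protein signaling, fell from 181, 137, 199 and 38 CPM to 18.2, 15.3 and 12.4 CPM (log2FC -3.17 ± 0.54). SPHK1, which makes sphingosine-1-phosphate, fell from 38.2–78.1 CPM to 3.92–10.6 CPM (log2FC -2.74 ± 0.52). FKBP5, a co-chaperone of steroid receptors and a known glucocorticoid target, fell from 6.08–14.2 CPM to 0.178–1.87 CPM (log2FC -3.61 ± 0.75).

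KRTAP2-3, a hair keratin-associated protein gene, counted 96.5, 51.8, 34.3 and 17.2 CPM at 6 h and 2.45, 7.13 and 4.0 CPM at 72 h (log2FC -3.47 ± 0.81), and its call was lost without replicate 1 of both times. SYBU, which links vesicles to kinesin, and NAV3, which binds microtubule ends, fell by log2FC values of -4.36 ± 0.96 and -2.82 ± 0.77. CENPW and ZWINT, parts of the kinetochore, KIF18B, a mitotic kinesin, and STIL, needed for centriole duplication, completed the 12 strongest decreases (log2FC -2.89 ± 0.38, -2.78 ± 0.34, -2.86 ± 0.77 and -2.63 ± 0.43). At 6 h FST, RGS2, SPHK1 and KRTAP2-3 were called higher under EGFhigh than in untreated cells (log2FC 2.1, 2.04, 2.79 and 3.91). At 72 h they were not called different from untreated cells (log2FC -0.97, -0.499, 0.793 and -1.32). They also fell with EGFlow and EGFhigh + EpEX, with no called difference in change from either. NRG1, SYBU, CENPW, ZWINT and STIL were called lower than in untreated cells at 72 h and were not called at 6 h.

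**Figure D1:**
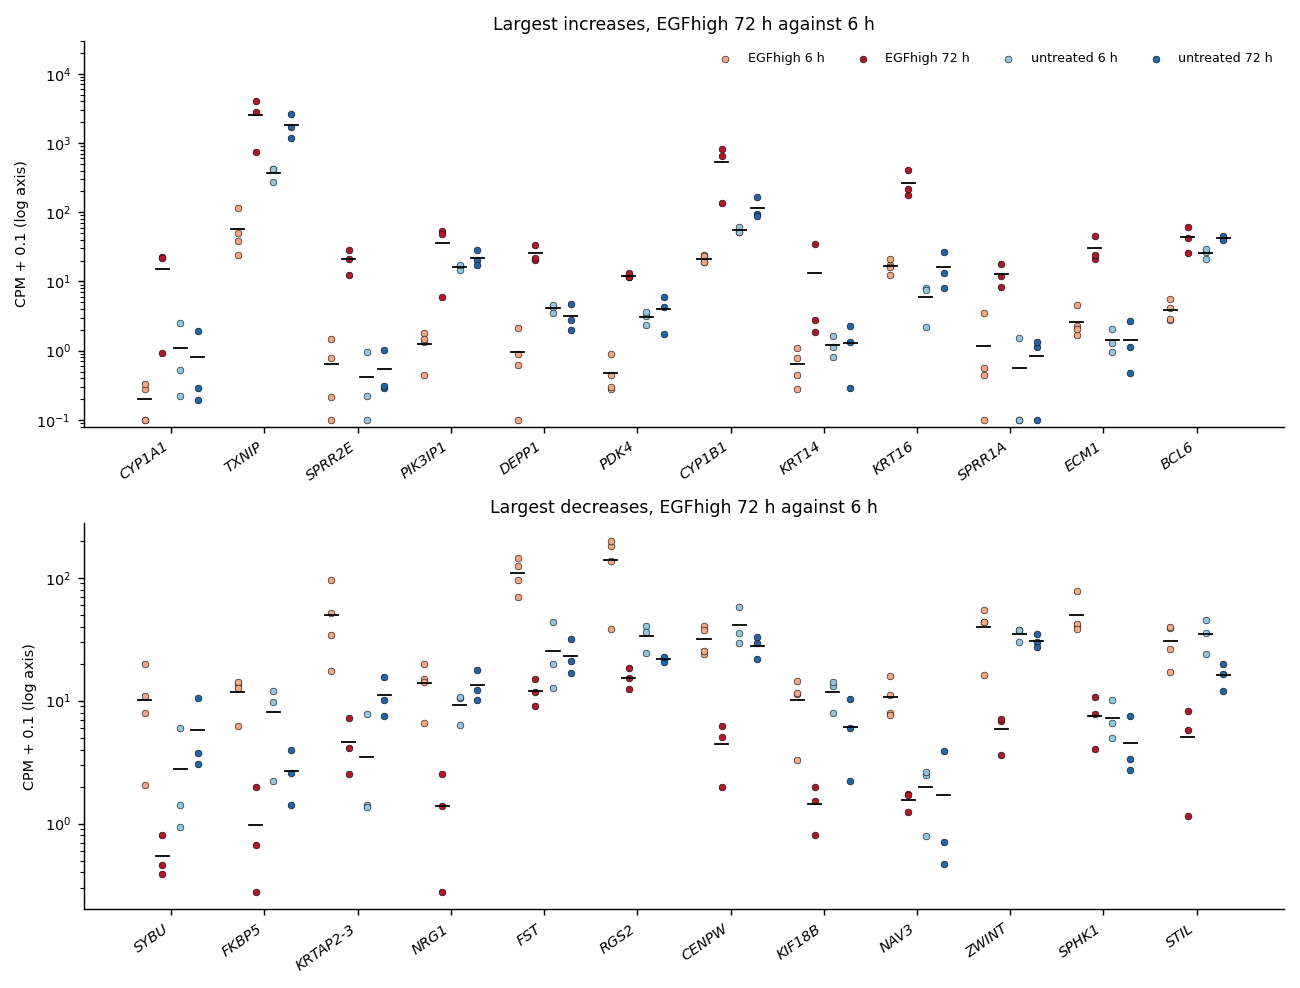
Levels in CPM, plus 0.1 and on a log axis, of the 12 genes with the largest increases and the 12 with the largest decreases under EGFhigh, with untreated cells of the same times beside them. Each point is 1 library and each line a group mean: the 72 h and 6 h libraries of EGFhigh do not overlap for any of the 24 genes, which the choice of genes required, and untreated TXNIP also was higher at 72 h.

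Markers of squamous differentiation were higher at 72 h. Of 24 tested cornified envelope genes, which encode proteins that are crosslinked under the membrane of dying keratinocytes, 7 rose and 0 fell (29.2%, against 12.3% of all genes), with a median log2FC of 1.37 over all 24, against 0.03 over all genes. SPRR1B, a small proline-rich crosslinking precursor, counted 78.9, 76.2, 73.3 and 119.7 CPM at 6 h and 668, 446 and 495 CPM at 72 h (log2FC 2.62 ± 0.38, adjusted p = 8.27e-06, edgeR). Every 72 h library exceeded every 6 h library at least 3-fold.

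SPRR2E was at 0–1.37 CPM at 6 h and at 12.2, 28.7 and 21.3 CPM at 72 h, and SPRR1A at 3.40, 0.351, 0 and 0.459 CPM and 17.8, 11.8 and 8.14 CPM, with every late library above every early one. The call of SPRR1A was lost in 6 of 14 alternative fits, each without 1 library. ECM1, a matrix glycoprotein of skin that stood in the EMT lists, rose from 1.58–4.42 to 21–45 CPM (log2FC 3.61 ± 0.87). KLK5, a protease that sheds cornified cells, rose from 5.44, 10.9, 3.71 and 2.64 to 134, 31.4 and 19.8 CPM, with 72 h replicate 1 highest, and lost its call without replicate 1 of both times. IVL, involucrin, was at 11.2–24.9 and 23.5–54.6 CPM and did not pass the test (log2FC 1.18 ± 0.48, adjusted p = 0.0939, edgeR). Without replicate 1 of both times, and also without 72 h replicate 1 alone, 4 of the cornified envelope genes were called. SPRR2 genes are near-identical copies, and KRT14, KRT16 and KRT17 are similar, so reads may have been lost or shared among them.

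Of 19 keratins tested, KRT14, KRT16, KRT17 and KRT19 rose and KRT80 fell, that is 4 and 1 (26.3%, against 12.3% of all genes). KRT16, a keratin of wounded and hyperproliferative epidermis, counted 12.2, 17, 16 and 21 CPM at 6 h and 407, 179 and 214 CPM at 72 h (log2FC 3.99 ± 0.50, adjusted p = 4.35e-07, edgeR), and the groups were far apart. KRT17, its partner in wounded epidermis, went from 8.16–16.4 to 22.3–109 CPM (log2FC 2.43 ± 0.50). KRT19, a keratin of simple epithelium and of the basal layer, went from 2014, 3008, 2300 and 3645 CPM to 6996, 6466 and 7228 CPM (log2FC 1.33 ± 0.23). KRT14 was at 1.75, 2.67 and 34.7 CPM at 72 h, so that replicate 4 set its log2FC of 4.50 ± 1.15, which was 1.95 and not called without that library.

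The hemidesmosome, which ties the keratin filaments of basal cells to laminin-332, had 10 genes tested. Of these 5 rose and 0 fell (50%, against 12.3% of all genes), among them ITGB4 and DST. ITGB4, the integrin β4 subunit, counted 671, 888, 837 and 1462 CPM at 6 h and 3123, 4357 and 4272 CPM at 72 h (log2FC 2.02 ± 0.28, adjusted p = 2.57e-06, edgeR). The lowest 72 h library was more than 2-fold above the highest 6 h library.

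LAMB3, the β3 chain of laminin-332, went from 101–173 to 279–354 CPM (log2FC 1.07 ± 0.36, adjusted p = 0.0433, edgeR), and LAMA3, the α3 chain, from 36.4–71 to 65.5–124 CPM with overlapping groups (log2FC 1.09 ± 0.34). Both lost their calls with total counts as the only scaling, under which 3 of the 10 genes rose and 1 fell, and in several fits without 1 library. Without 72 h replicate 4, 2 of the 10 rose, without 72 h replicate 3, 3, and without replicate 1 of both times, 4.

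Of 24 squamous lineage transcription factors 9 rose and 0 fell (37.5%, against 12.3% of all genes, and 1 fell with total counts as the only scaling). With EGFlow 9 of the 24 rose, with EGFhigh + EpEX 8 and in untreated cells 1. Their median log2FC was 0.62, 0.70 and 0.53 there, against 0.65 under EGFhigh. Those that rose under EGFhigh included EHF, an ETS factor of stratified epithelia (3.74, 3.51, 2.93 and 1.49 CPM at 6 h and 40.5, 26.6 and 12.3 CPM at 72 h, log2FC 3.21 ± 0.66), NOTCH3 and the NOTCH-related repressors HES1 and HES2. HES2 counted 13.3, 15.5, 23 and 20.3 CPM and 70.1, 111 and 99.2 CPM, a separation of more than 3-fold (log2FC 2.36 ± 0.29, adjusted p = 3.62e-07, edgeR). OVOL1, a repressor that holds cells epithelial, of the adhesion list below, rose from 8.49–17.7 to 34.9–55.8 CPM (log2FC 1.78 ± 0.45).

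Of 12 S100 calcium-binding proteins 4 rose and 0 fell (33.3%, against 12.3% of all genes). These were S100P (50.6, 37.9, 38.8 and 13.3 CPM against 369, 374 and 134 CPM, log2FC 3.07 ± 0.57), S100A9, S100A4 and S100A11, the last lost in 5 of 15 alternative fits. S100A4, known from migrating and mesenchymal cells, counted 26.9, 19.8, 21.3 and 19.3 CPM at 6 h and 110.3, 141 and 115 CPM at 72 h (log2FC 2.49 ± 0.33, adjusted p = 1.43e-06, edgeR). IL1RN, the receptor antagonist that blocks IL-1 in keratinocytes, was the sole gene called among 20 cytokines and chemokines, or 5%, below the 12.3% of all genes. IL1RN rose from 9.29–20.2 to 54.4–144 CPM (log2FC 2.74 ± 0.53).

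Of 25 EMT factors, cadherins and epithelial adhesion genes 5 rose and 1 fell (24%, against 12.3% of all genes). Those that rose included CLDN4, a tight junction claudin, JUP, plakoglobin of desmosomes, and CDH3, P-cadherin of basal cells (log2FC 1.07 ± 0.29, 0.96 ± 0.21 and 0.88 ± 0.17). DSP, desmoplakin, was among the squamous markers and rose too (log2FC 0.94 ± 0.21). The classic EMT readouts did not pass the test. CDH1, E-cadherin, counted 231, 168, 204 and 107 CPM at 6 h and 44.2, 334 and 252 CPM at 72 h, so that replicate 1 was lower and replicates 3 and 4 higher than all 6 h libraries (log2FC 0.24 ± 0.41, adjusted p = 0.762, edgeR). VIM, vimentin, was at 26.7–90.8 and 34.9–70.6 CPM (log2FC 0.00 ± 0.42), SNAI2, the repressor SLUG, at 14.5–38.1 and 5.60–40.8 CPM (log2FC -0.40 ± 0.48), and EPCAM at 178–296 and 177–312 CPM (log2FC 0.13 ± 0.22).

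Of 22 matrix proteases and members of the urokinase system 5 rose and 0 fell (22.7%, against 12.3% of all genes), and 3 rose without 72 h replicate 4. SERPINE2, which inhibits urokinase and thrombin, counted 72.1, 50.6, 69.4 and 61 CPM and 211, 124 and 268 CPM (log2FC 1.67 ± 0.44), and its call was lost without 72 h replicate 4. MMP28, epilysin, rose from 6.88–10.7 to 17.4–29.1 CPM, and TIMP1, which inhibits matrix metalloproteinases, from 73.1–114 to 140.2–190.5 CPM. MMP1, interstitial collagenase, was at 6.46, 2.99, 2.15 and 0.688 CPM and 9.33, 4.64 and 38.7 CPM, and without 72 h replicate 4 its log2FC of 2.56 ± 0.81 dropped to 1.22 and was not called.

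For the EGFR itself no difference between the times was called under EGFhigh. It counted 2251, 2041, 2313 and 1988 CPM at 6 h and 1732, 2347 and 1931 CPM at 72 h, and the groups overlapped (log2FC -0.10 ± 0.17, adjusted p = 0.762, edgeR). Of 15 tested members of the EGFR family and its ligands, 2 rose and 2 fell (26.7%, against 12.3% of all genes). ERBB3, the kinase-impaired receptor of neuregulins, went from 38.7, 21.1, 27.1 and 20.1 CPM to 77.6, 141 and 91.9 CPM, with no overlap (log2FC 1.97 ± 0.29, adjusted p = 8.27e-06, edgeR).

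ERBB2, the ligandless partner receptor, rose less, from 30.2–36.9 to 47.1–87.8 CPM (log2FC 0.96 ± 0.32), and lost its call in 8 alternative fits. The ligands NRG1 (above) and EREG, epiregulin (141, 130.5, 106 and 120.3 CPM at 6 h and 54, 45.8 and 56.8 CPM at 72 h, log2FC -1.25 ± 0.34), fell. The ligands AREG (779–1193 and 394–877 CPM), HBEGF and TGFA did not pass (log2FC -0.49 ± 0.42, -0.07 ± 0.59 and -0.20 ± 0.37).

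Of 25 immediate-early and AP-1 transcription factors 7 rose and 0 fell (28%, against 12.3% of all genes). With EGFlow 11 rose and 1 fell, and with EGFhigh + EpEX 10 rose and 1 fell. EGR1, a zinc finger factor, counted 267, 296, 153 and 303 CPM at 6 h and 508, 628 and 881 CPM at 72 h (log2FC 1.40 ± 0.32, adjusted p = 0.00197, edgeR), and each 72 h library was above each 6 h library. ATF3, a stress-induced repressor, went from 52, 16.3, 22 and 21.9 to 102, 196 and 215 CPM (log2FC 2.64 ± 0.42). FOSB, an AP-1 subunit, went from 35.7, 10.4, 15.2 and 15.7 to 146, 71 and 68.9 CPM (log2FC 2.35 ± 0.40), and NR4A2, an orphan nuclear receptor, from 3.51–4.21 to 13.8–17.1 CPM (log2FC 1.92 ± 0.44). ATF3, FOSB and NR4A2 rose in untreated cells too. ATF3 and FOSB were called lower under EGFhigh than in untreated cells at 6 h (log2FC -1.79 and -1.78) and at 72 h (-1.50 and -2.57). Over the 25 factors the median log2FC against untreated cells was -0.06 at 6 h and -0.10 at 72 h. The change of EGR1 under EGFhigh differed from that in untreated cells by 0.19 on the log2 scale, which was not called.

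FOSL1, the AP-1 subunit FRA-1, was at 217, 152, 118 and 159.8 CPM and 132, 34.1 and 55.7 CPM and did not pass (log2FC -1.12 ± 0.53, adjusted p = 0.165, edgeR). Of 29 ERK feedback regulators 6.9% were called, below the 12.3% of all genes. Of these regulators 1 rose (DUSP1, a dual-specificity phosphatase, log2FC 1.65 ± 0.45, with overlapping groups) and 1 fell (DUSP14, log2FC -1.24 ± 0.34). DUSP6 and SPRY4, the ERK phosphatase and the receptor inhibitor often read as signs of ERK activity, did not pass (log2FC -0.12 ± 0.30 and -0.38 ± 0.53).

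**Figure D2:**
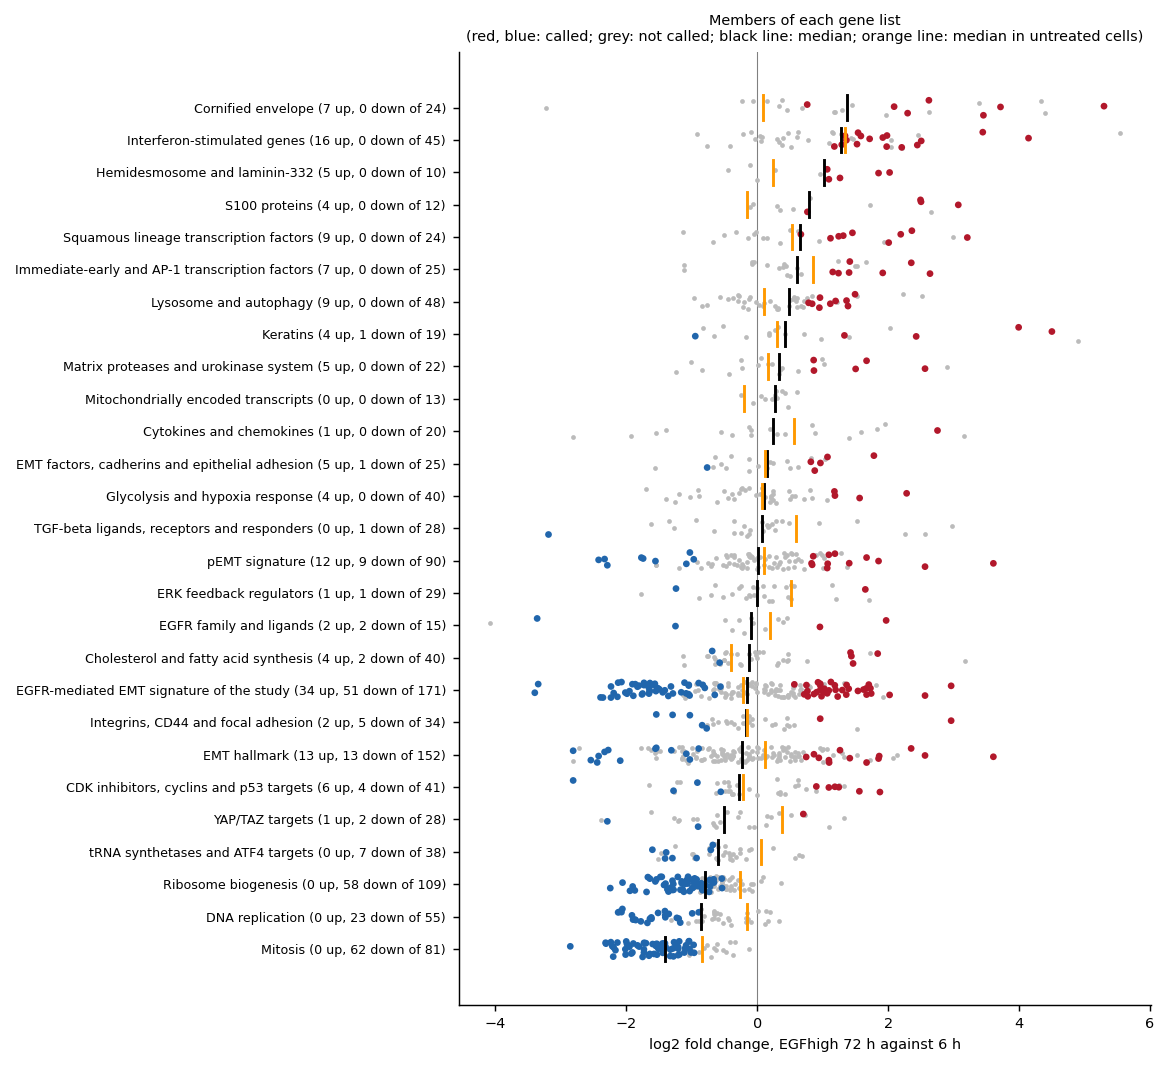
The log2 fold change between 72 h and 6 h of EGFhigh for each tested member of 27 gene lists, ordered by their median. Red and blue points are members called higher and lower, grey points those not called, black lines the median and orange lines the median of the same genes in untreated cells: mitosis lies lowest with a median of -1.41 and the cornified envelope highest with 1.37.

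Cell division genes fell, with the lowest median of the lists. Of 81 mitosis genes 62 fell and 0 rose (76.5%, against 12.3% of all genes), and all 81 had a negative log2FC (median -1.41). Without replicate 1 of both times 59 fell, without 72 h replicate 3 alone 40 and without 72 h replicate 4 alone 46. In bulk RNA fewer dividing cells and less RNA per cell cannot be told apart. CCNB1, cyclin B1, which drives entry into mitosis, counted 75.5, 47.8, 54.6 and 52.9 CPM at 6 h and 22.3, 15 and 17.3 CPM at 72 h (log2FC -1.65 ± 0.25, adjusted p = 1.59e-05, edgeR), and the lowest 6 h library was more than 2-fold above the highest 72 h library.

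MKI67, the proliferation antigen, went from 152, 153, 154 and 116 CPM to 86.9, 17.7 and 39 CPM (log2FC -1.58 ± 0.39), without overlap but with 72 h replicate 1 closest to the early libraries. BUB1B, of the spindle checkpoint, fell from 10.4–21.1 to 1.98–4.46 CPM (log2FC -2.24 ± 0.39). DLGAP5, which stabilises spindle fibers, fell from 16.2–28.1 to 0.713–8.71 CPM (log2FC -2.22 ± 0.40), and PIMREG, a mitotic regulator, by a log2FC of -2.32 ± 0.41.

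Many promoters of mitotic genes carry a CHR element, which recruits the DREAM and MuvB complexes, next to CCAAT boxes bound by NF-Y. The promoters were searched in 300-base windows from RefSeq (GRCh38.p14), 250 bases before to 50 after the start, for exact matches on either strand to TTTGAA or TTTAAA (CHR) and CCAAT, none of which contains another. A CHR match was found in 75% of 68 mitosis promoters, against 15.7% of the 10823 promoters of all genes tested, and a CCAAT match in 72.1%, against 36.8%. Of the promoters of all genes that fell, 21.3% held a CHR match, and of those that rose 13.8%. A match is a description of letters, not of a bound site. Called genes were eligible for display with a mean of at least 5 CPM, and 1 chromosome was left out. Of the eligible mitosis genes, the 4 with the largest decreases that hold both motifs in the 150 bases before the start are shown. CHR and CCAAT letters are in capitals (the reverse strand reads TTCAAA and ATTGG):
DLGAP5 (chr14:55191586-55191735, minus strand): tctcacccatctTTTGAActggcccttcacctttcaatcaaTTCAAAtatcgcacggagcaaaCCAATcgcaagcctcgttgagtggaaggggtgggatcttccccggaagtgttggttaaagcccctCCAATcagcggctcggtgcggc
KIF23 (chr15:69414199-69414348, plus strand): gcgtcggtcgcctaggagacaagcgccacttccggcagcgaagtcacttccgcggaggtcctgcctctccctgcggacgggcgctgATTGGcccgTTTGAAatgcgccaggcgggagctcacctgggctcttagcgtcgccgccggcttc
GTSE1 (chr22:46296720-46296869, plus strand): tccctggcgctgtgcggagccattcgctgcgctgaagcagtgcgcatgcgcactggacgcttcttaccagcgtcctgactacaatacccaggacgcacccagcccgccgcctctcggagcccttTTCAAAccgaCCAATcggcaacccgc
PRC1 (chr15:90994536-90994685, minus strand): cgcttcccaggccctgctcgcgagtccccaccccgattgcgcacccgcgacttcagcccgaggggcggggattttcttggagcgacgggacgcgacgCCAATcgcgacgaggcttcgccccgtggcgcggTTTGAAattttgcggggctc
KIF23 and PRC1 form the central spindle at cytokinesis, and GTSE1 binds microtubules in mitosis. Their log2FC values were -2.17 ± 0.27, -2.01 ± 0.58 and -2.14 ± 0.47.

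DNA replication genes fell as well, in 23 of 55 members with 0 higher (41.8%, against 12.3% of all genes, median log2FC -0.85). Without 72 h replicate 3 these were 13 and without 72 h replicate 4, 15. TK1, thymidine kinase, counted 82.9, 63.9, 68.7 and 57.8 CPM at 6 h and 24.3, 9.09 and 13 CPM at 72 h, more than 2-fold apart (log2FC -2.13 ± 0.26, adjusted p = 3.62e-07, edgeR). CDC45 and GINS1, of the replicative helicase, and UHRF1, which maintains DNA methylation, fell by log2FC values of -2.11 ± 0.48, -2.07 ± 0.42 and -1.92 ± 0.43. MCM2, of the helicase ring, counted 90.1, 74.3, 98.7 and 23.3 CPM and 3.97, 31 and 24.5 CPM, so that 6 h replicate 4 overlapped with the late libraries (log2FC -1.86 ± 0.53), and it was not called without 72 h replicate 1. An E2F site (the letters TTTCGCGC or TTTGGCGC) stood in 23.9% of 46 replication promoters, against 2.01% of all, and a CHR in 6.52%. Of 41 CDK inhibitors, cyclins and p53 targets 6 rose and 4 fell (24.4%, against 12.3% of all genes), but 3 rose without 72 h replicate 4 and 2 fell without 72 h replicate 3. CDKN1C, the inhibitor p57, was higher (log2FC 1.87 ± 0.50) and E2F3, an S phase factor, was lower (log2FC -1.28 ± 0.27).

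Ribosome biogenesis was the other large group that fell. Of 109 genes for rRNA transcription and processing 58 fell and 0 rose (53.2%, against 12.3% of all genes, median log2FC -0.81). Without replicate 1 of both times 78 fell, but 31 without 72 h replicate 3 and 37 without 72 h replicate 4. Against untreated cells of the same time, the median log2FC of the list under EGFhigh was 0.57 at 6 h and -0.01 at 72 h. Over all genes these medians were -0.05 and -0.03. NOP16, a nucleolar protein, counted 108, 131, 139.7 and 91.1 CPM at 6 h and 24.8, 30.3 and 29.5 CPM at 72 h (log2FC -2.06 ± 0.28, adjusted p = 2.32e-06, edgeR), with at least a 3-fold gap between the groups. UTP20, of the small subunit processome, went from 85–109 to 15.5–40.1 CPM (log2FC -1.94 ± 0.27), and URB2 and RRS1, assembly factors of the large subunit, by log2FC values of -2.25 ± 0.46 and -1.90 ± 0.38.

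The E-box CACGTG, which MYC and other factors bind, stood in 36.3% of 91 promoters of the ribosome biogenesis list, against 9.9% of all. Of the called members eligible for display by the same rule, the 3 with the largest decreases that hold it in the 150 bases before the start are shown, with the E-box in capitals:
UTP20 (chr12:101279955-101280104, plus strand): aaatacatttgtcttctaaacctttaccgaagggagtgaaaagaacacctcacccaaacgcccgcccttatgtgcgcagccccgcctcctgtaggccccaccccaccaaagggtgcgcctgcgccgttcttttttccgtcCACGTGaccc
POLR1G (chr19:45406494-45406643, plus strand): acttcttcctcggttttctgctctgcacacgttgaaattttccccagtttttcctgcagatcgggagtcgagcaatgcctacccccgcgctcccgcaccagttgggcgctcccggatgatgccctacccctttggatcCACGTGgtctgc
NAT10 (chr11:34105479-34105628, plus strand): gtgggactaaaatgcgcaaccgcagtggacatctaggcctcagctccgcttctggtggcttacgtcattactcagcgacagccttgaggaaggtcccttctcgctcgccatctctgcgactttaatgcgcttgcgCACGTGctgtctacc
POLR1G is a subunit of RNA polymerase I and NAT10 acetylates rRNA. MYC itself counted 85, 26.9, 18.1 and 22.4 CPM at 6 h and 2.68, 27.1 and 22.6 CPM at 72 h and did not pass the test (log2FC -1.12 ± 0.73, adjusted p = 0.339, edgeR).

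Of 38 tRNA synthetases and ATF4 targets 7 fell and 0 rose (18.4%, against 12.3% of all genes). Against untreated cells of the same time, their median log2FC under EGFhigh was 0.48 at 6 h and 0.01 at 72 h. PHGDH and PSAT1, which start serine synthesis, MTHFD2, of mitochondrial one-carbon metabolism, and SLC7A1, an arginine transporter, fell by log2FC values of -1.41 ± 0.24, -1.60 ± 0.55, -1.39 ± 0.45 and -1.30 ± 0.37. Those of PSAT1 and MTHFD2 were each lost in 6 of 15 alternative fits. PHGDH counted 166, 112, 161 and 208 CPM at 6 h and 88.9, 34.6 and 59.1 CPM at 72 h, without overlap. Without 72 h replicate 3 the list had 1 member lower, without 72 h replicate 4, 4, and with total counts as the only scaling, 12.

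Promoters of cornified envelope genes held AP-1 sites (TGANTCA) in 44.4% of 18, against 4.79% of all promoters and 6.06% of those of genes that rose. The list holds related SPRR genes, so these 18 promoters are few and not independent of each other. SPRR1A and SPRR1B, called members with the site in the 150 bases before the start, are shown with it in capitals:
SPRR1A (chr1:152983931-152984080, plus strand): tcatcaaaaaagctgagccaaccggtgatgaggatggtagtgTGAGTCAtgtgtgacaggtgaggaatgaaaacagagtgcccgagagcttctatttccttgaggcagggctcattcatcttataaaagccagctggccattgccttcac
SPRR1B (chr1:153031053-153031202, plus strand): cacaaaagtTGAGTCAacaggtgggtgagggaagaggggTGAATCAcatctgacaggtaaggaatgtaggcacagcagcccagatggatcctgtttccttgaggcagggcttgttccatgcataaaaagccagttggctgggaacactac

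**Figure D3:**
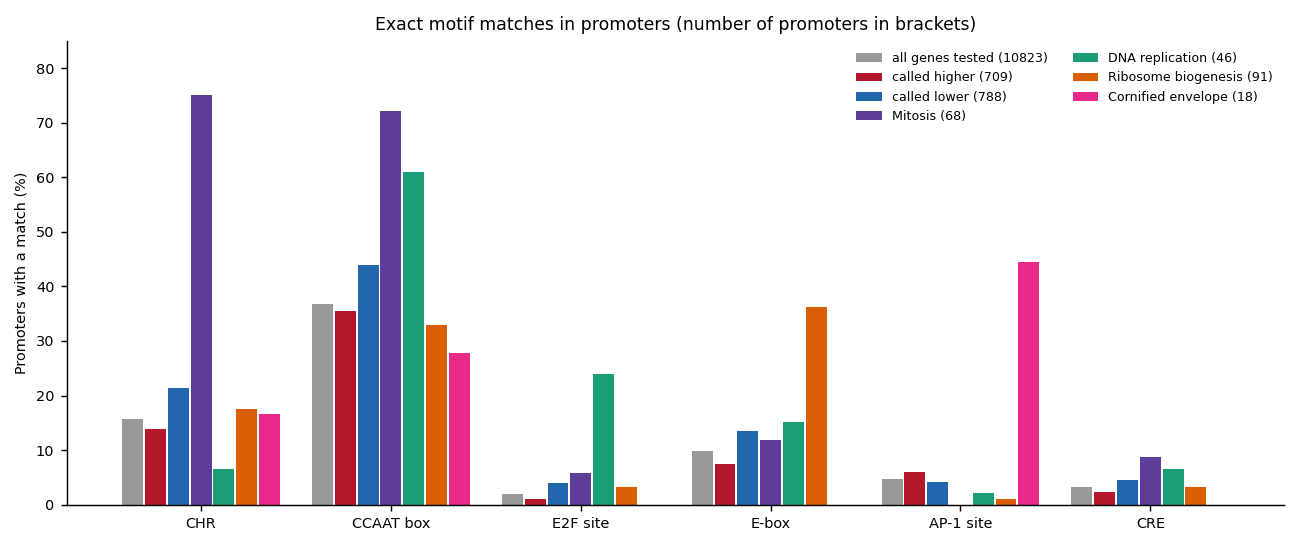
Percentage of promoters (250 bases before to 50 after the start) with an exact match to each motif, for all genes tested, genes called higher or lower at 72 h and 4 gene lists. CHR and CCAAT matches stand out for mitosis (75% and 72.1%), E2F sites for DNA replication (23.9%), E-boxes for ribosome biogenesis (36.3%) and AP-1 sites for the cornified envelope (44.4%).

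Interferon-stimulated genes rose in 16 of 45 members with 0 lower (35.6%, against 12.3% of all genes, median log2FC 1.28), and in 8 without 72 h replicate 3. IFIT1, which binds foreign RNA, counted 1.36, 2.28, 0.975 and 1.03 CPM at 6 h and 3.27, 29.8 and 13.7 CPM at 72 h (log2FC 3.44 ± 0.69). HLA-B, which presents peptides to T cells, counted 71.1–193 CPM at 6 h and 369–781 CPM at 72 h, without overlap (log2FC 2.21 ± 0.36). HLA genes share much sequence, so their reads may be divided among them. IFI6, a mitochondrial antiviral protein, rose from 3.44–19.1 to 31.5–126 CPM (log2FC 2.44 ± 0.66), and its call was lost without 72 h replicate 1.

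Lysosome and autophagy genes rose in 9 of 48 members, with 0 lower (18.8%, against 12.3% of all genes). DESeq2 called 14, and 1 was lower without replicate 1 of both times. CTSV, a cathepsin of squamous epithelium, counted 68.3–102 and 153–304 CPM. TPP1, a lysosomal peptidase, counted 6.44–13.7 and 21.5–29.6 CPM, and IDS, a sulfatase, 117–155 and 210.4–383 CPM (log2FC 1.36 ± 0.25 for CTSV, 1.39 ± 0.31 for TPP1 and 1.20 ± 0.21 for IDS). Of 40 genes of cholesterol and fatty acid synthesis 4 rose and 2 fell (15%, near the 12.3% of all genes). Without 72 h replicate 1 these were 5 and 6, and without 72 h replicate 3 or 72 h replicate 4 they were 3 and 0. SCD, which desaturates stearate, counted 1050, 844, 1263 and 1327 CPM and 2337, 4027 and 2908 CPM (log2FC 1.46 ± 0.29, adjusted p = 5.97e-04, edgeR), and ELOVL6, an elongase, and ACSS2, which activates acetate, rose with it (log2FC 1.84 ± 0.41 and 1.42 ± 0.30). HMGCS1, of the cholesterol branch, did not pass (log2FC -0.48 ± 0.26). Of 40 glycolysis and hypoxia genes 4 rose and 0 fell, a share of 10% against the 12.3% of all genes, and 2 rose without 72 h replicate 3 or without replicate 1 of both times.

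Cytoskeletal and matrix-binding genes were among those lower at 72 h. Of 34 integrins, CD44 and focal adhesion genes 2 rose and 5 fell (20.6%, against 12.3%), and 0 rose without 72 h replicate 4 and 3 fell without 72 h replicate 3. More of the 34 fell in the other treatments with EGF: 13 with EGFlow and 10 with EGFhigh + EpEX, and 1 rose in each. The median log2FC was -0.51 and -0.42 there, against -0.18 under EGFhigh and -0.16 in untreated cells. Under EGFhigh the lower members included the following. These were CALD1, caldesmon, TNS4, a tensin, and TPM4, a tropomyosin (log2FC -1.54 ± 0.28, -1.29 ± 0.34 and -1.03 ± 0.20). TPM4 counted 1126, 1037, 1233 and 1259 CPM and 766, 488 and 455 CPM, without overlap. MSN, moesin, was called higher although its libraries overlapped (4.08, 4.04, 5.46 and 1.49 CPM at 6 h and 10.3, 2.50 and 74.5 CPM at 72 h), and without 72 h replicate 4 its log2FC of 2.96 ± 0.73 dropped to 0.77 and was not called.

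Of 28 YAP/TAZ targets 1 rose and 2 fell (10.7%, below the 12.3% of all genes), and 5 fell without 72 h replicate 1 or with total counts as the only scaling. Those that fell were F3, tissue factor (645, 335, 311 and 203 CPM at 6 h and 61.3, 82 and 85.2 CPM at 72 h, log2FC -2.29 ± 0.54, not called without replicate 1 of both times), and the coactivator WWTR1 itself (log2FC -0.90 ± 0.22). MYOF, a membrane repair protein, rose (log2FC 0.70 ± 0.20, lost in 4 of 15 alternative fits). Of 28 TGF-beta ligands, receptors and responders 1 fell (FST) and 0 rose (3.57%, against 12.3% of all genes). In untreated cells 3 rose and 0 fell, with EGFlow 8 rose and 1 fell, and with EGFhigh + EpEX 9 rose and 1 fell. The change was called more negative under EGFhigh than in these for 2, 4 and 4 of the 28 genes, and more positive for 0. Of all genes tested, 0.515%, 0.391% and 0.521% had a more negative difference. The 13 mitochondrially encoded transcripts held 0 DEGs by edgeR and DESeq2 and 0 at an unadjusted p below 0.05, while their share of counts was 5.99 to 12.5% at 6 h and 11.7 to 12.9% at 72 h.

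The study defined a signature of 171 genes of EGFR-mediated EMT partly on these libraries, so the signature is not independent evidence. All 171 were tested here, and 34 rose and 51 fell between 6 h and 72 h of EGFhigh (49.7%, against 12.3% of all genes, and 26 and 47 without replicate 1 of both times). Among those that fell were DEPDC1B, which promotes mitotic de-adhesion, and KCNK2, a potassium channel (log2FC -2.39 ± 0.60 and -2.36 ± 0.56). Of 90 genes of the partial EMT signature from single tumor cells 12 rose and 9 fell (23.3%, against 12.3% of all genes), and of 152 of the EMT hallmark 13 and 13 (17.1%, near the 12.3%). Without 72 h replicate 4 the hallmark had 7 higher, and without 72 h replicate 3 it had 8 lower. Members of the hallmark that fell included THBS1, thrombospondin (140.4, 135, 181 and 80.9 CPM at 6 h and 42.3, 19.6 and 17.4 CPM at 72 h, log2FC -2.33 ± 0.39), and also TFPI2, a protease inhibitor (log2FC -2.54 ± 0.51), SLIT2, a guidance cue (log2FC -2.45 ± 0.44), and GJA1, connexin 43 (log2FC -2.42 ± 0.67, lost in 3 of 15 alternative fits).

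Cells that stayed without EGF also changed between 6 h and 72 h, with 238 DEGs (1.55%), 119 higher and 119 lower (0.775% each). The 2 comparisons share no library. Of the 1892 DEGs of EGFhigh, 95 were DEGs in the same direction in untreated cells and 5 in the opposite direction. Together these are 5.29% of the EGFhigh DEGs and 42.0% of the untreated DEGs, and 1461 (77.2%) had the same sign there. Over all genes the log2FC values of both comparisons correlated with Pearson r = 0.15, a description across genes, which are not independent replicates.

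The difference between the 2 changes, tested as an interaction, was called for 155 genes (1.01%), 76 with a more positive and 79 with a more negative change under EGFhigh (0.495% and 0.515%, and 51 and 95 with total counts as the only scaling, which moved the median difference of all genes from 0.01 to -0.12). Of these, 117 were also DEGs of EGFhigh, each with the difference in the direction of its own change, and 38 were not. Without 72 h replicate 1, 262 differences were called, without 6 h replicate 2, 92, and without untreated 72 h replicate 2 or untreated 6 h replicate 4, 96 and 86. For the other EGFhigh DEGs the test did not separate the change under EGFhigh from that in untreated cells, at 3 or 4 libraries a group.

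Among called differences with a mean of at least 5 CPM over the 13 libraries, the largest positive ones were those of PDE2A, DEPP1, MYH16, PIK3IP1, SPRR1B and CYP1B1. SPRR1B counted 44, 28.5 and 30.9 CPM in untreated cells at 6 h and 8.56, 10.5 and 9.82 CPM at 72 h, a decrease, while it rose under EGFhigh, so the difference was 4.46 ± 0.59 (log2, SE, adjusted p = 3.02e-05, edgeR). Untreated DEPP1 was at 3.36–4.49 and 1.91–4.65 CPM (difference 5.38 ± 1.11), PIK3IP1 at 14.4–17.1 and 17.2–28.4 CPM (difference 4.59 ± 0.97) and CYP1B1 at 51.8–61.2 and 87–167 CPM (difference 3.58 ± 0.68). For DEPP1, PIK3IP1, CYP1B1 and BCL6 the untreated level at 6 h was above that of EGFhigh at 6 h, so the rise under EGFhigh began from a lower level. This 6 h difference was called for PIK3IP1 and BCL6 (log2FC -3.9 and -2.83), but not for DEPP1 and CYP1B1 (-2.38 and -1.39). At 72 h DEPP1 and CYP1B1 were called higher under EGFhigh than in untreated cells (log2FC 3.01 and 2.2), while PIK3IP1 and BCL6 were not called different.

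PDE2A, a cyclic nucleotide phosphodiesterase, and MYH16, a myosin pseudogene in humans, were at or near 0 in untreated cells at 72 h. PDE2A fell there from 3.82, 2.64 and 5.19 CPM to 0.0930, 0 and 0.204 CPM and was at 3.51–8.26 and 5.35–26 CPM under EGFhigh (difference 6.41 ± 1.42, adjusted p = 0.0113, edgeR). Untreated MYH16 was at 2.10–6.72 and 0–0.930 CPM (difference 5.16 ± 1.23, lost in 4 of 20 alternative fits).

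ITGB4 was not called without EGF (912, 1116 and 1419 CPM at 6 h and 1105, 827 and 974 CPM at 72 h), giving a difference of 2.27 ± 0.41 (adjusted p = 0.00166, edgeR). S100P, HES2, ERBB3 and ELOVL6 also had positive differences (3.21 ± 0.83, 1.90 ± 0.42, 1.64 ± 0.42 and 2.50 ± 0.61), but of 21 alternative fits the call was lost in 12 for S100P, in 10 for ERBB3, in 8 for ELOVL6 and in 2 for HES2. TXNIP rose in both, untreated from 425, 276 and 418 CPM to 1725, 1172 and 2616 CPM, and its larger change under EGFhigh gave a difference of 3.19 ± 0.78 (adjusted p = 0.0290, edgeR). This call was lost in 9 of 21 alternative fits, and at 6 h EGFhigh began from the lower level. At 72 h TXNIP was not called different between EGFhigh and untreated cells (log2FC 0.447).

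The largest negative ones by the same rule were those of SLC2A3, VIT, CPVL, SYBU, KRTAP2-3 and C5, of which that of SYBU was lost in 5 of 21 alternative fits. SLC2A3, the glucose transporter GLUT3, counted 1.04, 0.360 and 0.421 CPM in untreated cells at 6 h and 25.1, 58.6 and 27.4 CPM at 72 h, and under EGFhigh 0.115–1.93 CPM at 6 h and 0.178–0.856 CPM at 72 h (difference -6.97 ± 1.45, which rests on levels near the floor, adjusted p = 0.00635, edgeR). VIT, vitrin of the extracellular matrix, rose in untreated cells to 25.2, 39.7 and 60.9 CPM and fell under EGFhigh (difference -6.32 ± 1.09). CPVL, a carboxypeptidase, and C5, a complement component, were at most 0.856 CPM under EGFhigh at 72 h and at 14.5–18.9 and 9.21–21.8 CPM in untreated cells (differences -5.88 ± 1.02 and -5.14 ± 1.03).

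The EGFR differed in this way as well: in untreated cells it rose from 1717, 1555 and 1478 CPM to 3638, 3938 and 4725 CPM (log2FC 1.37 ± 0.19), while no change was called under EGFhigh (difference -1.47 ± 0.25, adjusted p = 0.00106, edgeR). Genes called in opposite directions were SPRR1B and PLIN3, a lipid droplet protein, which rose with EGFhigh and fell without EGF. The reverse held for EFNB2, an ephrin, SEMA3D, a semaphorin, and VIT. Under EGFhigh the call of PLIN3 (log2FC 0.75 ± 0.22) was lost in 5 of 15 alternative fits, among them that without replicate 1 of both times, and that of VIT in 6 of 15. SEMA3D counted 17.3, 18.3, 14.4 and 17.3 CPM and 6.30, 6.60 and 4.0 CPM under EGFhigh, and 20.5, 34.4 and 38.9 CPM and 99.3, 101 and 147 CPM in untreated cells, with no overlap between the late groups (difference -3.47 ± 0.49, adjusted p = 7.67e-05, edgeR). EFNB2 counted 52.7, 63.4, 67.7 and 64.7 CPM and 33.6, 9.45 and 12.3 CPM under EGFhigh, and 24.6–28.7 and 56.7–71 CPM in untreated cells (difference -3.00 ± 0.46).

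**Figure D4:**
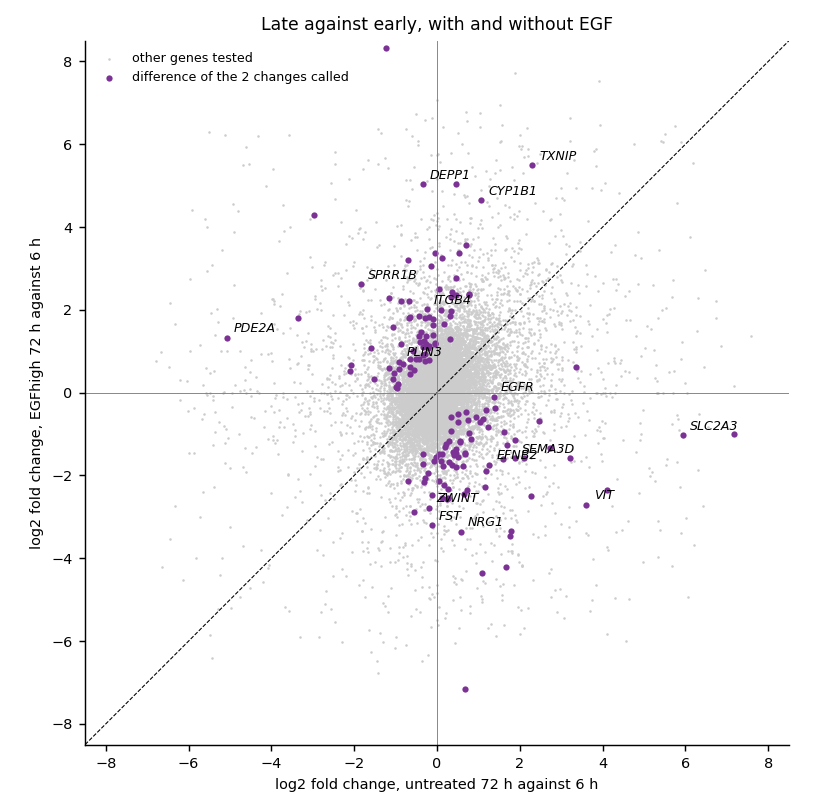
Each point is a tested gene, placed by its log2 fold change between 72 h and 6 h in untreated cells (horizontal axis) and under EGFhigh (vertical axis), and the dashed line marks equal change. Purple points are the 155 genes whose 2 changes differed, which lie away from the line, with SPRR1B upper left and SLC2A3, SEMA3D and EGFR to the right.

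Of all genes tested, 0.775% were called lower and 0.775% higher in untreated cells. A more negative difference was called for 0.515% and a more positive one for 0.495%. By gene group, the mitosis list fell in untreated cells too (11 of 81 lower, median log2FC -0.84, against -1.41 under EGFhigh). Of its genes, 1 (KIF23) had a called difference, while 18 had a more negative change under EGFhigh at an unadjusted p below 0.05. Of the 15350 genes, 2107 had an unadjusted p below 0.05 for the difference, in either direction. Ribosome biogenesis had 1 gene lower in untreated cells, and 4 had a more negative change under EGFhigh, with NOP16 (-1.76 ± 0.39) and UTP20 (-1.73 ± 0.38) among them. DNA replication had 0 DEGs in untreated cells by edgeR and by DESeq2 (2 lower at an unadjusted p below 0.05) and 1 called difference (TK1, -1.42 ± 0.35, lost in 11 of 21 alternative fits), with 19 more negative at an unadjusted p below 0.05. Interferon-stimulated genes rose in 14 of 45 in untreated cells (median log2FC 1.34), and 0 differences were called by edgeR and by DESeq2, with 10 more negative and 2 more positive at an unadjusted p below 0.05. Of the immediate-early and AP-1 factors, 6 of 25 rose in untreated cells, including ATF3 (log2FC 2.35 ± 0.45) and FOSB (log2FC 3.14 ± 0.44). Here 0 differences were called by edgeR and by DESeq2, and 1 was at an unadjusted p below 0.05.

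Against the other treatments with EGF, the same comparison of times gave 2265 DEGs with EGFlow (14.8%, 7.43% higher and 7.33% lower) and 2060 with EGFhigh + EpEX (13.4%, 6.12% higher and 7.3% lower), from libraries that EGFhigh does not share. EGFhigh shared 872 DEGs of the same direction with EGFlow and 689 with EGFhigh + EpEX, and 15 and 13 had opposite directions. In all, 46.9% of the EGFhigh DEGs were DEGs with EGFlow, or 39.2% of the EGFlow DEGs. The difference of the change from that of EGFlow was called for 117 genes (0.762%) and from that of EGFhigh + EpEX for 142 (0.925%). These were 57 more positive and 60 more negative (0.371% and 0.391%), and 62 and 80 (0.404% and 0.521%), but 33 and 66, and 50 and 106, with total counts as the only scaling, at median differences of -0.15 and -0.17. Without EGFhigh replicate 1 of both times, 54 and 58 differences were called, with 49 without EGFlow 72 h replicate 2 and 34 without EGFhigh + EpEX 72 h replicate 2.

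The median log2FC of ribosome biogenesis was -0.81 in EGFhigh, -0.79 in EGFlow and -0.86 in EGFhigh + EpEX, and 0 of its 109 genes had a called difference from either by edgeR or DESeq2. At an unadjusted p below 0.05, 1 gene was more negative than with EGFlow, and 3 were more negative and 6 more positive than with EGFhigh + EpEX. For DNA replication 1 and 3 of 55 genes were lower with EGFlow and EGFhigh + EpEX, against 23 with EGFhigh, and for mitosis 23 and 15 of 81, against 62. The difference itself was called for 1 and 2 of the DNA replication genes and for 2 and 5 of the mitosis genes, all more negative under EGFhigh, and at an unadjusted p below 0.05 for 20 and 17, and 34 and 40. The cornified envelope list had 0 and 1 genes higher, against 7, and 3 of its genes had a more positive change under EGFhigh than with EGFlow, and 3 than with EGFhigh + EpEX.

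SPRR1B averaged 101 ± 14.2 CPM at 6 h and 26.2 ± 15.6 CPM at 72 h of EGFlow (SD, n = 4 each), and 91.3 ± 32.2 CPM and 36.8 ± 26.1 CPM with EGFhigh + EpEX (n = 4 and 3). Its change under EGFhigh differed from both, by 4.57 ± 0.53 and 3.92 ± 0.56 on the log2 scale. ITGB4 averaged 933 ± 167 and 1285 ± 389 CPM with EGFlow and 1046 ± 191 and 1318 ± 672 CPM with EGFhigh + EpEX, with differences of 1.56 ± 0.38 and 1.69 ± 0.40.

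KRT16 had differences of 3.63 ± 0.65 and 2.98 ± 0.68, and PDE2A of 7.62 ± 1.27 and 5.32 ± 1.23. NRG1, SEMA3D, VIT, CPVL, C5, ZWINT and CENPW had negative differences from both. NRG1 averaged 11.8 ± 5.82 CPM at 72 h of EGFlow and 16.7 ± 7.41 CPM of EGFhigh + EpEX, against 1.30 ± 1.12 CPM of EGFhigh, with differences of -3.14 ± 0.78 and -3.88 ± 0.80. EGFR rose from 1945 ± 422 to 3490 ± 49.7 CPM with EGFhigh + EpEX (log2FC 0.84 ± 0.17, difference -0.94 ± 0.24).

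**Figure D5:**
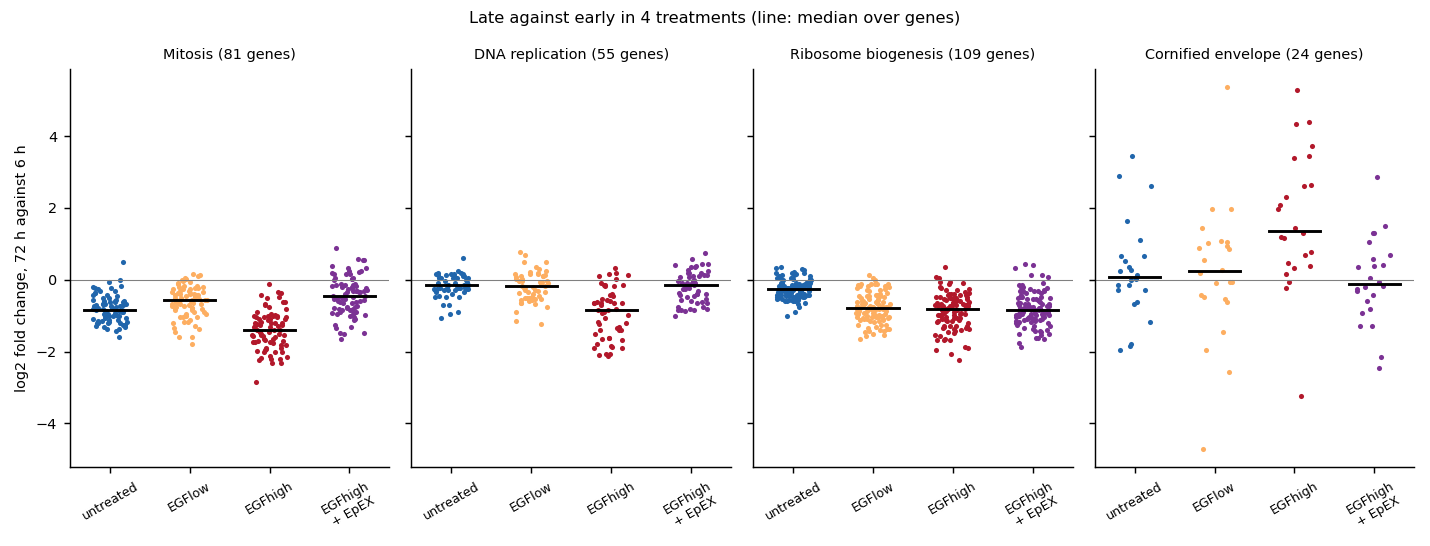
The log2 fold change between 72 h and 6 h of each tested gene of 4 lists in untreated cells, EGFlow, EGFhigh and EGFhigh + EpEX, with a line at the median. Mitosis and DNA replication lie lowest in EGFhigh (medians -1.41 and -0.85), ribosome biogenesis lies at about the same level in the 3 treatments with EGF, and the cornified envelope is highest in EGFhigh (median 1.37).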

How the data were processed

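RNA of Kyse30 cells was sequenced by the 3′ method QuantSeq. The authors deposited raw read counts per gene, made with STAR and HTSeq on GRCh38 according to the submitters' processing notes, while versions, the strand setting and any use of molecular identifiers are not given in the sources used here. Rows of unassigned reads were left out. Gene symbols came from GENCODE 29, and 57754 of 58395 identifiers had one.

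All 43 Kyse30 libraries in 13 groups entered 1 fit with edgeR 4.0.16 in R 4.3.3 (TMM scaling, filterByExpr with a minimum count of 10, quasi-likelihood F test, Benjamini-Hochberg adjustment over 15350 genes). Standard errors were derived from the F statistic. The DEG thresholds were those of the study (adjusted p up to 0.05, absolute log2FC above 0.5), which used DESeq2, here an alternative (1.42.0). The fits were tested on simulated data. Differences between treatments were interaction terms of the same fit.

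Genes are named by rule: the 12 highest and 12 lowest log2FC among DEGs with a mean of at least 5 CPM and libraries that do not overlap, the 6 highest and 6 lowest called differences from untreated cells with the same minimum over the 13 libraries, up to 4 DEGs of each list, a set of always named genes (some genes of the rule are not reported here), and genes with opposite changes in untreated cells. DSP, KRT80, DST and the genes shown for their promoters were named outside it, after their values were seen. The members and lists were chosen with earlier results of these data known. Alternatives were other scalings and filters, a fit of the compared groups only, a replicate block and the omission of each library, and the omission of replicate 1 of both times was added after seeing the data. Counting error limits genes near the 3-count floor.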

Additional observations from a re-analysis of the deposited data

Results flagged for a closer look

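In each named gene the 4 EGFhigh libraries of 6 h were searched for a library far from the other 3, by its gap to the nearest of them as a share of the whole range. Of 137 genes, 10 had such a library, and chance gives about 1 in 20 groups. Replicate 1, the shallowest library, was high for ATF3 (52 CPM), DUSP1 (29.6 CPM), MYC (85 CPM) and SPRR1A (3.4 CPM). Replicate 4 was the one apart for SPRR1B (120 CPM), PLIN3 (550 CPM), SPHK1 (78.1 CPM), KRT17 (16.4 CPM) and MKI67 (116 CPM), and replicate 3 for PIMREG (15.8 CPM). The part of depth in this was not tested.

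The change between 6 h and 72 h of EGFhigh differed from that in untreated cells by the interaction test of edgeR for the named genes that follow, in log2 units as EGFhigh minus untreated. More positive under EGFhigh were PDE2A (6.41), DEPP1 (5.38), MYH16 (5.16), PIK3IP1 (4.59) and SPRR1B (4.46). Positive differences were also found for CYP1B1 (3.58), S100P (3.21), TXNIP (3.19), BCL6 (2.87) and ELOVL6 (2.5). Further positive differences were those of ITGB4 (2.27), HES2 (1.9), PLIN3 (1.67) and ERBB3 (1.64). More negative were SLC2A3 (-6.97), VIT (-6.32), CPVL (-5.88), SYBU (-5.45), KRTAP2-3 (-5.23), C5 (-5.14) and NRG1 (-3.93). Negative differences were also found for SEMA3D (-3.47), SLIT2 (-3.09), KCNK2 (-3.08), FST (-3.07), EFNB2 (-3), TFPI2 (-2.81) and THBS1 (-2.59). Further negative differences were those of ZWINT (-2.58), CENPW (-2.33), NOP16 (-1.76), UTP20 (-1.73), CALD1 (-1.52), EGFR (-1.47) and TK1 (-1.42). Beside the losses given above, of 21 alternative fits the call was lost in 11 for CALD1, in 10 for TFPI2, in 7 for KCNK2, in 6 for BCL6 and in 3 for UTP20.

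The same test against EGFlow gave the following differences, among the genes with the largest changes and those always named. Higher under EGFhigh were PDE2A (7.62), MYH16 (4.75), SPRR1B (4.57), KRT16 (3.63) and ITGB4 (1.56). Lower were CPVL (-5.85), VIT (-5.04), C5 (-4.46) and SEMA3D (-3.55). Also lower were NRG1 (-3.14), CENPW (-2.05), EFNB2 (-1.95) and ZWINT (-1.87).

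Against EGFhigh + EpEX the differences were these. The positive ones were PDE2A (5.32), MYH16 (4.91), SPRR1B (3.92), KRT16 (2.98), CYP1B1 (2.78), ITGB4 (1.69) and PLIN3 (1.51). The negative ones were CPVL (-6.09), SYBU (-5.99), VIT (-5.35), C5 (-5.07) and NRG1 (-3.88). Other negative ones were SEMA3D (-3.5), STIL (-2.56), ZWINT (-2.14), CENPW (-1.98) and EGFR (-0.94).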

How the results depend on the processing

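Every called log2FC of a named gene kept its sign under the alternatives run. The number of EGFhigh DEGs (1892) became 1286 with only the groups compared. It ranged from 945 to 2061 when 1 library was left out, and members of gene lists called from 215 to 375. The 238 DEGs of untreated cells became 407 with no filter on low counts, 433 with only the groups compared and 479 with DESeq2, and 72 to 155 without 1 library. The 155 differences from untreated cells became 401 with no filter and 304 with DESeq2 (86 to 262 without 1 library). The 117 differences from EGFlow became 308 with no filter, 200 with DESeq2 and 54 without replicate 1 of both times (49 to 139 without 1 library). The 142 differences from EGFhigh + EpEX became 400, 305 and 58 by these alternatives, and 65 with only the groups compared (34 to 185 without 1 library). The cause was not tested.

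Deviations of same-numbered EGFhigh libraries from their group means correlated at -0.10, 0.03 and 0.03, so the numbers were not taken to pair libraries. Across the Kyse30 treatments of 6 h the mitochondrial share of counts nevertheless followed the replicate number. It was 5.99 to 7.44% in replicate 1, 6.88 to 11.1% in replicate 2 and 9.31 to 12.9% in replicates 3 and 4. A batch behind the numbers was not tested. With the replicate number as a block, 2191 DEGs were called for EGFhigh, 410 for untreated cells, and 170, 200 and 212 differences from untreated cells, EGFlow and EGFhigh + EpEX.

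Fitted fold changes of genes near the 3-count floor at 6 h depend on the prior count. With 3 or 4 libraries a group, a difference that was not called is not shown to be absent.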

Other observations

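Some genes outside the named set were picked after their values were seen. PER1, a repressor of the circadian clock, counted 9.18, 4.39, 8.78 and 7.80 CPM at 6 h of EGFhigh and 29.5, 49.6 and 34.7 CPM at 72 h (log2FC 2.34 ± 0.37, adjusted p = 2.18e-05, edgeR), against 16.5–29 and 22.2–48.8 CPM in untreated cells. FBXO32, a ubiquitin ligase subunit known as a FOXO target, counted 25.2, 24.9, 25.4 and 34.4 CPM and 100.3, 169 and 201 CPM (log2FC 2.50 ± 0.40), against 64.6–107 and 49.99–122 CPM. In both genes the late EGFhigh libraries were all above the early ones.

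MUC16, a membrane mucin, counted 37.4, 14, 13.7 and 6.08 CPM at 6 h and 235, 168 and 47.1 CPM at 72 h of EGFhigh, with replicate 1 the highest at both times (log2FC 3.14 ± 0.79, adjusted p = 0.00597, edgeR). NQO1, a quinone reductase known as a target of NRF2, was lower at 72 h (182, 136, 163 and 179 CPM against 63, 84 and 97.2 CPM, log2FC -1.02 ± 0.20), and in untreated cells it was at 177–227 and 56.7–70.8 CPM.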
